A study of Homo sapiens
Rattus norvegicus and Homo sapiens with 10 samples.

Results

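The genes described here encode the human J-domain proteins named DNAJA, DNAJB or DNAJC, co-chaperones of the HSP70 chaperones. They were taken by symbol, as every gene name made of DNAJA, DNAJB or DNAJC and a number, with an A or B allowed after it, which left out symbols that end in a pseudogene or antisense suffix. This gave 44 of the 62754 genes in the table, 4 of them DNAJA, 13 DNAJB and 27 DNAJC genes. The J domain holds a histidine-proline-aspartate motif that makes HSP70 split its ATP and close on an unfolded client protein. A nucleotide exchange factor then reopens HSP70, and the client is released to fold, to cross a membrane or to be broken down. The A and B classes mostly receive clients of many kinds, whereas most C members tie HSP70 to a single place or task, such as uncoating clathrin vesicles or pulling proteins into mitochondria. Heat shock factor 1 switches on several cytosolic members when proteins unfold in heat, and the unfolded protein response switches on several members of the endoplasmic reticulum (ER).

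The line was U251N, a long-established glioblastoma line of human origin, implanted into the brains of adult female athymic RNU/RNU rats, and RNA was sequenced from the grafts. The 3 recurrent tumours had been heated by laser interstitial thermal therapy (LITT, Visualase system) under diffusion-weighted magnetic resonance imaging and had grown back. The 3 primary tumours were not ablated. The 3 control brains, labelled tumour-free, were 1 failed graft (replicate 1) and 2 procedural controls, and 1 culture of the line, labelled as an out-of-experiment reference, made up the last group. All in vivo libraries share the rat host, and all human reads come from 1 cell line. Whether every library had an animal of its own is not stated in the labels, so the p-values may measure technical spread in part. Replicate numbers only name samples.

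The depth per library was 20321590 to 39714714 counts for tumours, 1358753 to 4158124 for controls and 65058642 for the culture. The labels give a share of graft reads of 29.44% to 42.67% in recurrent tumours, of 42.52% to 64.40% in primary tumours and of 0.33% to 4.90% in controls. The glial line markers GFAP, VIM, NES, SOX2, EGFR, CD44 and S100B were present in all 6 tumours, and OLIG2 was at or near 0. These 8 markers summed to 7569 to 7751 CPM of the library total in recurrent tumours and 7468 to 9092 in primary tumours, against 97.9, 502 and 6292 in control replicates 1, 2 and 3. Control replicate 3, though labelled tumour-free, thus came far nearer to the tumours in this share of its counts than the other controls. The source of those counts was not tested. Of the host markers, HBB, HBA1, HBA2 and ALAS2 of blood were at 0 in every library, and AIF1, CX3CR1, P2RY12 and CLDN5 were at 0 in every tumour. Primary replicate 2 had the highest value of the 6 tumours for 27.5% of all tested genes and the lowest for 28.7%. It had the highest for 10 of 37 J-domain genes and the lowest for 12. Its RNA integrity number was 7.8, against 8.1 to 8.9 in the other 5 tumours, and its share of small structural RNAs was the highest at 14.1%. Their part in its values was not tested.

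The motif that defines the family could be read in the coding sequences of GENCODE release 29. Of the 43 members with a complete coding sequence there, 42 held in-frame codons for histidine, proline and aspartate in a row, and DNAJB13 did not. Among 19634 other protein-coding genes the same 3 residues occurred in a row in 5.41%. The 42 members spelled the motif in 13 ways, of which CACCCAGAC was used by 8. The stretches of 27 bases below belong to members whose levels are described further on, and they are shown because the motif keeps its amino acids while its bases and neighbours differ. The codons of the motif are in capitals, in the coding sense.
DNAJA1: ttgaagtacCATCCTGATaagaaccca
DNAJB1: ctgcgctacCACCCGGACaagaacaag
DNAJB4: ctcaaatttCATCCGGACaagaacaaa
DNAJC12: ctggaatgtCACCCAGACaagcatcct
DNAJC6: ctggtggtgCACCCAGATaaagctact
DNAJC1: ctaactttaCATCCAGACaagaataaa
DNAJC19: cttttaaatCATCCTGACaaaggagga
DNAJA1, DNAJB1 and DNAJB4, which receive cytosolic clients, hold the motif close to the start, at codons 34, 32 and 32 of their reading frames. DNAJC6 holds it at codon 934 of 970, close to the end, behind the parts of the protein that meet clathrin vesicles. DNAJC19, a small mitochondrial protein, holds it at codon 90 of 116.

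Of the 44 members, 37 passed the filter on low counts for the tumours. The other 7 were DNAJA4, DNAJB3, DNAJB7, DNAJB8, DNAJB13, DNAJC5B and DNAJC15. DNAJB3, DNAJB7 and DNAJB8 had no count in any library, and GENCODE types DNAJB3 as a transcribed processed pseudogene. DNAJB13, a protein of cilia and flagella, had 1 count over all 6 tumours and 0 in the culture. DNAJC5B had no count in a tumour and 6 in the culture. DNAJA4, a heat-inducible cytosolic member, had 15 counts over the 6 tumours, 12 of them in primary replicate 1, and 6 in the culture. DNAJC15, of the mitochondrial inner membrane, had 50 counts over the 6 tumours and 34 in the culture.

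DNAJA1 and DNAJB1, the cytosolic partners of HSP70 that fold and refold proteins, led the family in the tumours. Levels between genes are compared here as CPM of the TMM-scaled library (trimmed mean of M values, a scaling that sets most genes level between libraries) per kilobase of the gene's longest transcript. DNAJA1 (chr9:33025211-33039907 on GRCh38, plus strand) averaged 225 CPM per kilobase over the 6 tumours and DNAJB1 (chr19:14514770-14529770, minus strand) 101. DNAJC8, of the spliceosome, averaged 92.7 CPM per kilobase, DNAJB11, the co-chaperone of HSPA5 in the ER, 42.1, and DNAJC7, a cytosolic member that also binds HSP90, 40.8. The lowest tested members were DNAJC28, a mitochondrial protein, at 0.335 CPM per kilobase, DNAJC27, a small GTPase with a J domain, at 0.770, and DNAJC6 at 2.00.

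The order at the top depends on the length used. With the median transcript length DNAJA1, DNAJB1 and DNAJC8 were again the first 3, but DNAJC10, an ER disulfide reductase whose longest transcript has 20129 bases, ranked 4 where it had ranked 24. DNAJB11 ranked 12 by that length. As a share of all J-domain CPM of the library total, DNAJA1 made up 19.9% in the tumours and 12.9% in the culture, and DNAJB1 8.44% in the tumours and 5.78% in the culture. Among the 6 tumours the coefficient of variation of the TMM-scaled CPM ran from 4.41% for DNAJB12, an ER membrane protein, to 40.0% for DNAJC6.

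**Figure D1:**
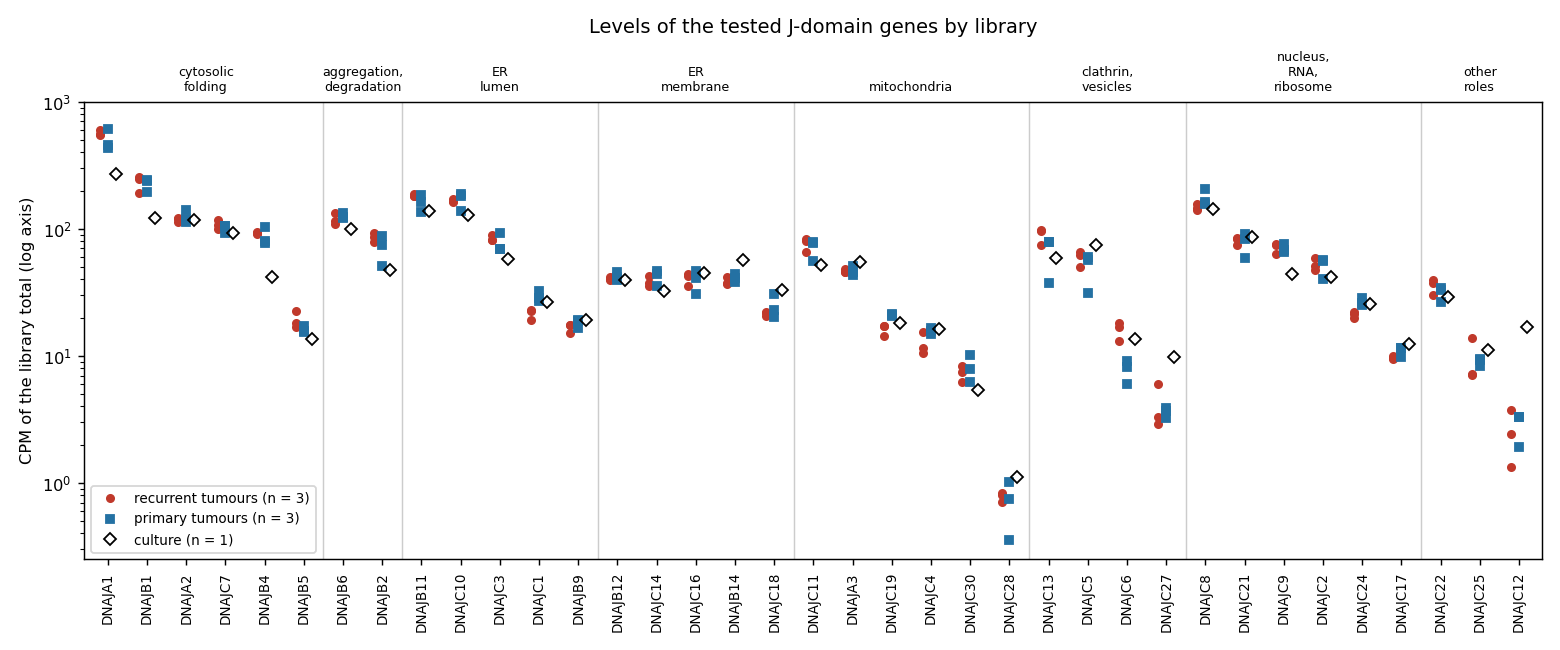
Levels of the 37 tested J-domain genes, grouped by role, on a log axis of CPM of the library total, with a point for each recurrent and primary tumour and an open diamond for the culture (n = 1). The tumours lie close together for most genes, DNAJA1 is at the top, and the culture, at 16.8 CPM, stands far above the tumours for DNAJC12.

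Recurrent tumours were compared with primary tumours, the contrast named in the study's design, to ask whether the co-chaperones differed in tumours that had grown back after heating. No J-domain gene passed the test at an adjusted p of 0.05 (edgeR quasi-likelihood test, Benjamini-Hochberg over 15928 genes), and the smallest adjusted p of the 37 was 0.267. Over all tested genes 0.00628% passed, a single gene. Of the 37 log2 fold changes of recurrent over primary tumours, 20 were above 0 and 17 below, and their median was 0.023, beside 49% above 0 and a median of -0.0068 over all tested genes. For 28 of the 37 the fitted levels were within 20% of each other, as they were for 58.5% of all genes, and 1 of the 37 was past 2-fold, beside 5.19% of all genes.

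By unadjusted p under 0.05 in edgeR, 1 of the 37 was higher in recurrent tumours, where 4.59% of all genes were, and 3 were lower, where 3.79% were, 4 in all beside 8.38%. The values of all 3 recurrent tumours lay above those of all 3 primary tumours for 2 members, DNAJC6 and DNAJB5, beside 7.94% of all genes. They lay below for 3 members, DNAJC1, DNAJC19 and DNAJC24, beside 7.43%. DESeq2 called 1 of 40 members, DNAJC6, and 0.358% of all 30188 genes with a count in a tumour. That set is wider than the 15928 genes of edgeR, and genes without an adjusted p count in it as not called.

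DNAJC6 encodes auxilin, which brings HSP70 to clathrin-coated vesicles to strip their coats and is known mainly from neurons. The gene lies at chr1:65248219-65415869 on the plus strand. Levels in this comparison are again CPM of the TMM-scaled library. DNAJC6 had 13.5, 17.3 and 16.8 CPM in recurrent tumours, against 8.89, 6.38 and 7.94 CPM in primary tumours. The lowest recurrent tumour stood above the highest primary tumour. The log2 fold change was 1.04 (SE 0.20, adjusted p = 0.267 by edgeR), the largest of the 37. With DESeq2 the adjusted p was 0.00644, with no filter on low counts in edgeR 0.00312, and with limma-voom 0.278. Over all alternatives the adjusted p ran from 0.00312 to 0.825 and the log2 fold change stayed between 0.81 and 1.15.

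In the controls DNAJC6 had 1, 4 and 23 counts, and the host share of its counts estimated from them was at most 0.262% in a tumour, or 2.18% when small structural RNAs were kept out of the host reads. In CPM of the library total, DNAJC6 had 13.6 in the culture, on 888 counts in 1 library. On the same scale it had 13.2, 17.98 and 16.8 CPM in recurrent tumours, against 9.099, 5.96 and 8.13 CPM in primary tumours. The primary tumours all lay below the culture, while recurrent replicate 1 lay below it and replicates 2 and 3 above it, with no test. Of 9 host neuron markers 6 were tested, and the sum of all 9 in CPM of the library total ran from 853 to 1112 in recurrent tumours and from 920 to 1495 in primary tumours, most of it NEFL, which had 477 CPM in the culture. On that scale the culture had 32.5 CPM of SYT1, 22.2 of GAD1 and 2.69 of SNAP25, against tumour means of 9.79, 6.30 and 1.75. For NEFL, GAP43 and RBFOX3 the culture was below the tumour mean, with GAP43 at 8.73 CPM against 64.1. In TMM-scaled CPM, SNAP25 averaged 1.41 in recurrent tumours and 2.10 in primary tumours, and SYT1 11.7 in recurrent and 7.86 in primary tumours. GAP43 averaged 73.7 in recurrent and 54.0 in primary tumours, with overlapping groups, and GAD1 6.19 in recurrent and 6.45 in primary tumours. RBFOX3 had 5.495, 1.33 and 0.963 CPM in recurrent tumours, against 1.31, 0.422 and 0.123 CPM in primary tumours, so that recurrent replicate 1 alone stood far above the rest. SYP, STMN2 and SLC17A7 averaged under 1 CPM in both groups. GFAP averaged 304 CPM in recurrent tumours and 534 in primary tumours (log2 fold change -0.81, adjusted p = 0.267 by edgeR). The part of these markers in the DNAJC6 difference was not tested, and in bulk samples fewer cells of a type and less RNA per cell cannot be told apart.

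The library names of recurrent replicates 2 and 3 begin with other letters than those of the other 4 tumours. Among the 4 that share their letters, recurrent replicate 1 stood above the primary tumours for DNAJC6 by a log2 fold change of 0.81, a value with no test.

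**Figure D2:**
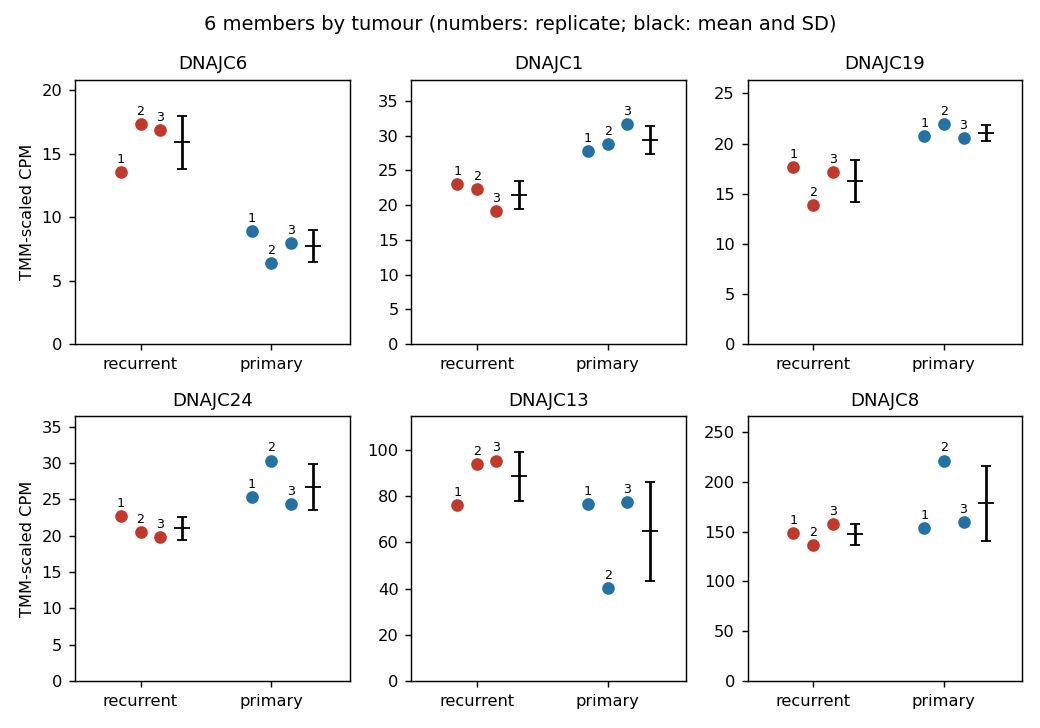
Levels of 6 J-domain genes, one panel each, in CPM of the TMM-scaled library from 0, with the 3 recurrent tumours left of the 3 primary tumours, replicate numbers beside the points and the mean and SD in black. The groups stand apart for DNAJC6, with the recurrent tumours at 13.5 to 17.3 CPM and the primary tumours at 6.38 to 8.89 CPM, and apart in the other direction for DNAJC1.

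The other members of endocytosis and vesicles were DNAJC13, DNAJC5 and DNAJC27. All 4 tested members of this list had a log2 fold change above 0, beside 49% of all genes, with a median of 0.36, and none passed the test. DNAJC27 turned to -0.23 without recurrent replicate 3. DNAJC13 acts on endosomes, where it brings HSP70 to clathrin and sorting complexes. It had 76.2, 94.1 and 95.4 CPM in recurrent tumours, against 76.5, 40.1 and 77.5 CPM in primary tumours. The groups overlapped, and primary replicate 2 stood far below the other 5 tumours. The log2 fold change of DNAJC13 was 0.45 (SE 0.23, adjusted p = 0.622 by edgeR), and 0.20 without primary replicate 2. DNAJC5 is the cysteine-string protein of synaptic and secretory vesicles. It averaged 59.5 CPM in recurrent tumours and 49.1 in primary tumours, with primary replicate 2 again the lowest at 33.2. The log2 fold change of DNAJC5 was 0.28, and 0.058 without primary replicate 2. Without that library DNAJC27 was at 0.15 and DNAJC6 at 0.92. DNAJC27 had 2.97, 3.20 and 6.06 CPM in recurrent tumours, against 3.77, 3.46 and 3.59 CPM in primary tumours. Recurrent replicate 3 stood above all primary tumours and the other 2 recurrent tumours below them.

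Within the ER lumen 2 of 5 members had a log2 fold change above 0 and none passed the test. DNAJC1 is an ER membrane protein whose J domain faces the lumen and works with HSPA5 (chr10:21756537-22003769, minus strand). It had 23.0, 22.3 and 19.2 CPM in recurrent tumours, against 27.8, 28.8 and 31.7 CPM in primary tumours. All recurrent tumours stood below all primary tumours. Its log2 fold change was -0.46 (SE 0.15, adjusted p = 0.521 by edgeR), and over the alternatives its adjusted p ran from 0.307 to 0.887.

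The 4 ER members that the unfolded protein response is known to induce gave no common direction. DNAJB11 had 186, 173 and 188 CPM in recurrent tumours, against 159, 145 and 178 CPM in primary tumours, groups that overlapped (log2 fold change 0.18, SE 0.14, adjusted p = 0.714 by edgeR). DNAJB9, which holds the stress sensor IRE1 in check, had 15.6, 17.0 and 17.4 CPM in recurrent tumours, against 16.1, 20.3 and 18.5 CPM in primary tumours. DNAJC3, an inhibitor of the kinase PERK, had 83.4, 85.7 and 82.3 CPM in recurrent tumours, against 67.9, 73.5 and 90.7 CPM in primary tumours. The groups overlapped for both. DNAJC10 had 167, 160 and 171 CPM in recurrent tumours, against 183, 148 and 177 CPM in primary tumours, and its log2 fold change was -0.030. The 5 members of the ER membrane, some of which help clear misfolded membrane proteins, ranged from -0.20 for DNAJC18 to 0.038.

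Of 6 tested mitochondrial members 2 had a log2 fold change above 0 and 4 below. DNAJC19 is thought to act with the motor that pulls proteins through the inner mitochondrial membrane (chr3:180983709-180989774, minus strand). It had 17.7, 13.9 and 17.2 CPM in recurrent tumours, against 20.7, 22.0 and 20.5 CPM in primary tumours, and the groups did not overlap. The log2 fold change of DNAJC19 was -0.37 (SE 0.16, adjusted p = 0.589 by edgeR). DNAJC4, a mitochondrial member, had 15.8, 10.2 and 11.6 CPM in recurrent tumours, against 15.3, 17.6 and 14.6 CPM in primary tumours. Recurrent replicate 1 stood within the primary tumours, and the log2 fold change of -0.34 had an SE of 0.20. DNAJA3, a matrix co-chaperone of mitochondrial HSP70, averaged 46.3 CPM in recurrent tumours and 46.8 in primary tumours.

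Of 6 members with tasks in the nucleus, in RNA or at the ribosome 3 lay above 0 and 3 below. DNAJC24 takes part in making diphthamide, a modified residue of the elongation factor EEF2. It had 22.7, 20.5 and 19.8 CPM in recurrent tumours, against 25.3, 30.3 and 24.4 CPM in primary tumours, with no overlap (log2 fold change -0.35, SE 0.15, adjusted p = 0.590 by edgeR). DNAJC8 had 149, 137 and 157 CPM in recurrent tumours, against 154, 222 and 160 CPM in primary tumours. Primary replicate 2 stood above all other tumours. The log2 fold change of DNAJC8 was -0.28, and -0.093 without that library.

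The heat-inducible cytosolic members did not separate the groups. DNAJA1 had 566, 575 and 562 CPM in recurrent tumours, against 449, 464 and 600 CPM in primary tumours. The 3 recurrent tumours lay close together, inside the range of the primary tumours (log2 fold change 0.17, SE 0.16, adjusted p = 0.772 by edgeR). DNAJB1 had 251.3, 245 and 192 CPM in recurrent tumours, against 238, 208 and 231 CPM in primary tumours, and its log2 fold change was 0.026. DNAJB4 had 94.7, 91.2 and 90.5 CPM in recurrent tumours, against 78.5, 82.7 and 101 CPM in primary tumours (log2 fold change 0.076). DNAJB5, a relative of DNAJB1 that is not among the heat-inducible genes listed here, had 17.1, 21.7 and 18.2 CPM in recurrent tumours, against 15.2, 16.6 and 16.6 CPM in primary tumours. The groups did not overlap for DNAJB5, and the log2 fold change was 0.24 (SE 0.16, adjusted p = 0.684 by edgeR). DNAJB2, which hands clients to the proteasome, had 87.8, 75.6 and 92.9 CPM in recurrent tumours, against 85.7, 54.3 and 73.1 CPM in primary tumours (log2 fold change 0.27, SE 0.18, and 0.10 without primary replicate 2).

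**Figure D3:**
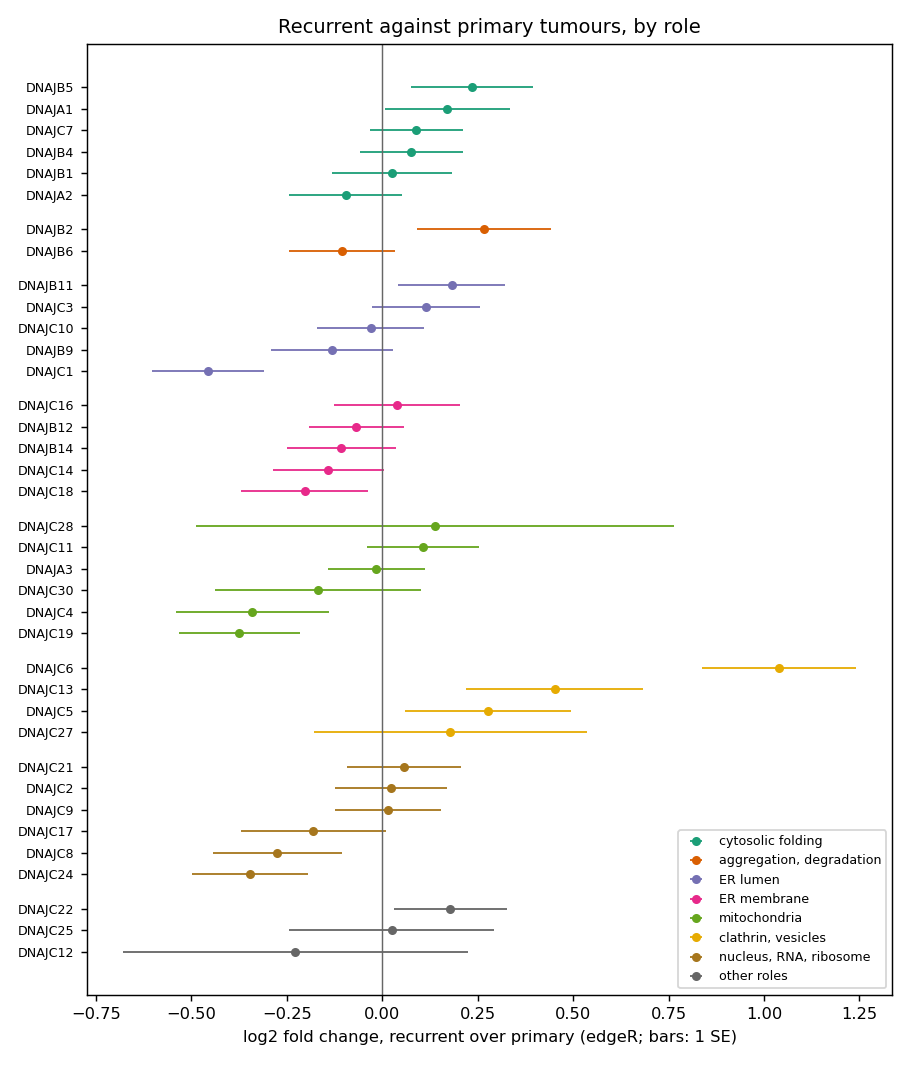
Log2 fold change of recurrent over primary tumours for the 37 tested J-domain genes, grouped by role, with bars of the SE from edgeR. Most genes lie near 0, between -0.46 for DNAJC1 and 0.45 for DNAJC13, and DNAJC6 stands alone at 1.04.

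The partner genes gave no call either, in any of the lists compared. Of 15 tested HSP70 and HSP110 genes 10 had a log2 fold change above 0, with a median of 0.15. They ran from -0.92 for HSPA6, a strictly heat-inducible HSP70, to 0.65 for HSPA1A. HSPA6 had 4.55, 8.50 and 3.65 CPM in recurrent tumours, against 18.7, 8.74 and 4.45 CPM in primary tumours, and HSPA1A had 18.4, 14.5 and 12.5 CPM in recurrent tumours, against 11.0, 3.14 and 14.6 CPM in primary tumours. Groups overlapped for both, and the near-identical HSPA1A and HSPA1B can trade reads. HSPA4L, an HSP110, had 57.7, 66.7 and 64.9 CPM in recurrent tumours, against 42.8, 42.2 and 49.1 CPM in primary tumours (log2 fold change 0.50, SE 0.13, adjusted p = 0.460 by edgeR).

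All 9 nucleotide exchange factors were tested, with 3 above 0 and a range from -0.26 for SIL1 of the ER to 0.31 for the heat-inducible BAG3. Of 12 heat shock response genes 9 lay above 0 (median 0.14), and of 14 ER stress response genes 10 lay below (median -0.11). The heat shock response list shares HSPA1A, HSPA1B, HSPA8 and HSPH1 with the HSP70 and HSP110 list. DDIT3, the stress-induced factor CHOP, had 10.4, 17.6 and 14.3 CPM in recurrent tumours, against 20.6, 31.5 and 19.1 CPM in primary tumours (log2 fold change -0.74, SE 0.24, adjusted p = 0.521 by edgeR). The recurrent tumours all stood below the primary tumours for DDIT3.

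The 6 tumours were then set beside the culture, the same line outside the animal. The culture is 1 library, so these ratios have no replicate check and no test. Values are CPM of the library total, the log2 ratio carries a pseudocount of 0.1 CPM, and genes needed 1 CPM in the culture or the tumour mean. The 3 tested heat-inducible members lay above the culture in all 6 tumours, while DNAJA4 had too few counts to compare. Past 2-fold with the culture outside all 6 tumours, 1 of 37 members was higher in tumours, where 5.2% of all genes were, and 2 were lower, where 11.2% were. The median log2 ratio of the members was 0.079, beside -0.086 over all 14819 genes. The culture lay below all 6 tumours for 14 members, beside 20.5% of all genes, and above all 6 for 9 members, beside 34.6%. It lay between the groups, with all recurrent tumours on one side and all primary tumours on the other, for 2 members, DNAJC1 and DNAJC19, beside 1.23% of all genes.

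DNAJB4 was the member past 2-fold that was higher in tumours. It had 92.4, 94.6 and 90.5 CPM in recurrent tumours and 80.3, 77.3 and 103 CPM in primary tumours, against 41.8 CPM in the culture, a log2 ratio of 1.1003. DNAJA1 had 552, 596 and 561 CPM in recurrent tumours and 460, 434 and 615 CPM in primary tumours, against 271 CPM in the culture, a log2 ratio of 0.98. DNAJB1 had 245, 254 and 192 CPM in recurrent tumours and 244, 194 and 237 CPM in primary tumours, against 121 CPM in the culture, a log2 ratio of 0.91. All 6 tumours stood above the culture for these 3 genes, which are the tested members of the heat-inducible list. With TMM scaling over the 7 libraries DNAJA1 also passed 2-fold, so that 2 members were higher, beside 5.89% of all genes, and 2 were lower, beside 9.97%. Under that scaling the culture lay below all 6 tumours for 18 members, beside 24.8% of all genes, and above all 6 for 7, beside 30.3%.

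DNAJB2 (log2 ratio 0.73) and DNAJC9, which chaperones histones (0.68), also lay above the culture in all 6 tumours. DNAJB2 averaged 78.4 CPM in the tumours (SD 14.99, n = 6) against 47.3 in the culture, and DNAJC9 70.5 CPM in the tumours (SD 5.52, n = 6) against 43.9 in the culture. The ER-stress-inducible members gave smaller ratios, 0.47 for DNAJC3, 0.39 for DNAJC10, 0.32 for DNAJB11 and -0.14 for DNAJB9. The culture lay below all 6 tumours for DNAJC3 and DNAJC10, within them for DNAJB11 and above them for DNAJB9. Under TMM scaling it lay below all 6 tumours for DNAJB11 too and within them for DNAJB9.

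DNAJC12 and DNAJC27 were lower in the tumours. DNAJC12 is a co-chaperone of the hydroxylases of phenylalanine, tyrosine and tryptophan (chr10:67796665-67838166, minus strand). It had 1.33, 3.72 and 2.41 CPM in recurrent tumours and 1.93, 3.28 and 3.32 CPM in primary tumours, against 16.8 CPM in the culture. The highest tumour was far below the culture, the log2 ratio was -2.61, and the level in the culture was 6.10 times that in the tumours. These values rest on 27 to 132 counts in a tumour and 1090 in the culture, and the 3 controls held no count of DNAJC12. DNAJC27 had 2.90, 3.32 and 6.05 CPM in recurrent tumours and 3.86, 3.24 and 3.68 CPM in primary tumours, against 9.81 CPM in the culture, a log2 ratio of -1.33. DNAJC28 averaged 0.746 CPM in the tumours against 1.12 in the culture (-0.53), and DNAJC18 23.1 CPM in the tumours against 33.0 in the culture (-0.51).

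The partner lists on the same scale put the members beside the genes they work with. Of 12 heat shock response genes the culture lay below all 6 tumours for 10, beside 20.5% of all genes, and 5 were past 2-fold and higher in tumours, beside 5.2%, with a median log2 ratio of 1.08. HSPA8, the constitutive HSP70, averaged 1950 CPM in the tumours (1563 to 2280) against 723 in the culture, and HSPA1B 338 CPM in the tumours (195 to 433) against 79.1 in the culture. CRYAB, a small heat shock protein, averaged 84.4 CPM in the tumours (41.1 to 119) against 2.06 in the culture. The 15 HSP70 and HSP110 genes had a median of 0.34 with 5 past 2-fold, all higher in tumours, beside 5.2% of all genes. HSPA8, HSPA1B and HSPH1, all past 2-fold, are in this list and in the heat shock response list, so those counts are not separate. The 14 ER stress response genes had a median of 0.083 with 1 higher, beside 5.2%, and 1 lower, beside 11.2%, and the 9 nucleotide exchange factors a median of 0.0058 with none past 2-fold. Among those lists DDIT3 was lower in tumours, at 18.8 CPM against 39.9 in the culture. Growth in a brain, dissection and the RNA preparation all differ between tumours and culture and cannot be told apart here.

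**Figure D4:**
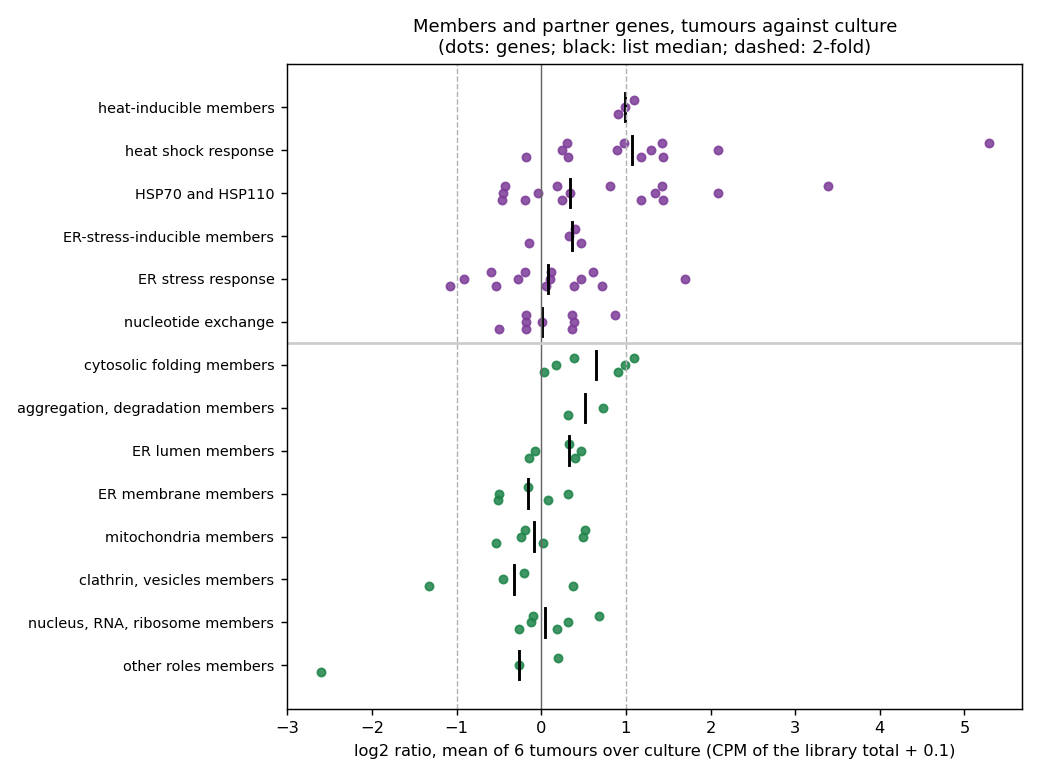
Log2 ratio of the mean of 6 tumours over the culture (CPM of the library total plus 0.1), a dot for each gene, in rows for the role groups of the J-domain genes and for the partner lists, with each list's median in black and 2-fold as dashed lines. The cytosolic folding members and the heat shock response genes lie to the right, and DNAJC12 lies farthest left among the members, at -2.61.

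The control brains show how many counts of each gene were assigned to human genes outside the tumour groups. The 44 members summed to 2700, 2822 and 2746 CPM in recurrent and 2668, 2374 and 2882 CPM in primary tumours, against 64.0, 197 and 2003 CPM in control replicates 1, 2 and 3, where they had 87, 335 and 8328 counts. Control replicate 3, with 4.90% graft reads, had a J-domain share close to that of the tumours, while the other 2 controls were far lower. Small structural RNAs made up 6.04% to 14.1% of the counts in the tumours, against 92.6%, 89.7% and 31.3% in control replicates 1, 2 and 3. With the 3 controls as a group, 39 members were tested, 0 rose in the tumours, where 0.927% of all genes did (edgeR, 3 groups). On the lower side DNAJC15 alone passed the threshold, 1 of 39, beside 4.5% of all genes. It had failed the filter on low counts over the tumours and entered this fit with the controls, so nothing is read from that direction.

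DNAJC15 had 5, 8 and 18 counts in recurrent tumours and 5, 4 and 10 counts in primary tumours, against 0, 5 and 3 counts in the far shallower controls, where they amounted to 0, 2.94 and 0.721 CPM. Without control replicate 3, 7 of 39 members rose in the tumours, where 7.34% of all genes did: DNAJA1, DNAJB4, DNAJB11, DNAJC1, DNAJC7, DNAJC9 and DNAJC14. DNAJC1 and DNAJC14 had 0 counts in control replicates 1 and 2, so they entered this fit through the tumours. Lower human counts in brains labelled tumour-free come with the design, so nothing is read from these rises. On the lower side 2 passed, DNAJC15 and DNAJA4, beside 8.01% of all genes, and both had entered with the controls, where DNAJA4 had 1, 3 and 0 counts. DNAJA1 had 5.15 and 30.0 CPM in control replicates 1 and 2 and 335 CPM in replicate 3. DNAJB4 had 0, 4 and 304 counts in the 3 controls. Among members with a count in every tumour, the estimated host share of a tumour's counts was highest for DNAJC15, at up to 15.8%, then for DNAJC17, a splicing-related member, at 0.482%, and for DNAJB5 at 0.419%. With small structural RNAs kept out of the host reads these shares were 46.0% for DNAJC15, 4.07% for DNAJC17 and 3.54% for DNAJB5. DNAJA4 had no count in 3 of the tumours, so its share has no upper value. Its lowest by the second form was 8.56%, above the DNAJC17 and DNAJB5 shares.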

How the data were processed

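RNA from frozen, dissected tissue was read as strand-specific, ribosomal-RNA-depleted paired libraries, per the labels' protocols. The authors deposited 1 table of estimated counts per gene, made with Salmon 1.10.3 per the submitters' processing notes, on GRCh38, and not scaled between libraries. Its annotation release is not given in the sources used. Of 62754 gene IDs, 58261 matched GENCODE release 29, from which coordinates, types and lengths were taken. Reads shared by similar transcripts are divided by a model. Of the 44 members, 9 had fractional counts (over 0.05 from a whole number), among them DNAJC25, which overlaps the readthrough gene DNAJC25-GNG10. The 32 pseudogene rows of the family held at most 0.135% of the members' counts in a tumour or the culture.

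Counts were rounded. edgeR 4.0.16 in R 4.3.3 (two-sided quasi-likelihood F test without covariates, TMM scaling, genes kept by filterByExpr) was fitted over all genes with Benjamini-Hochberg adjustment and a threshold of 0.05, and tested on simulated data. The SE is the size of the log2 fold change divided by the square root of F. Alternatives used DESeq2 1.42.0, limma 3.58.1, other scaling, no filter, a graft covariate and left-out libraries. The host share is the median over controls of a gene's count per host read, times a tumour's host reads, over its count there. Host reads were taken from the total count and the graft percentage in the labels.

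Named members are the 10 with the smallest p in recurrent against primary tumours, the 5 highest and 3 lowest per kilobase, the 4 largest and 4 smallest ratios to culture, the 3 highest finite host shares, and the heat-inducible and ER-stress-inducible members. Other members are named for their role. Partner genes are extremes of their lists, but not every extreme is given. Among those left out are CRYAB and EDEM1 in recurrent against primary tumours, and HSPA6 and SDF2L1 against the culture. HSPA4L, HSPA8, HSPA1B and the culture values of DDIT3 and DNAJC6 were chosen after their values were seen. The members and all lists were chosen with earlier results of these data known. A count of 0 allows up to 3 counts. Such limits cover counting error only. J-domain proteins with other symbols are not reported here.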

Additional observations from a re-analysis of the deposited data

Results flagged for a closer look

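In 2 members all recurrent tumours lay on one side of the culture and all primary tumours on the other, 2 of 37 beside 1.23% of all genes. DNAJC1 had 22.4, 23.1 and 19.2 CPM of the library total in recurrent tumours and 28.5, 26.9 and 32.5 CPM in primary tumours, beside 26.7 CPM in the culture. DNAJC19 had 17.3, 14.4 and 17.2 CPM in recurrent tumours and 21.2, 20.5 and 21.1 CPM in primary tumours, beside 18.3 CPM in the culture. The difference between these opposite shifts was not tested separately, since the culture drops out of it and leaves recurrent against primary tumours, where the adjusted p was 0.521 for DNAJC1 and 0.589 for DNAJC19 (edgeR). The primary tumour of DNAJC1 nearest to the culture, replicate 2, was above it by less than the spread between primary tumours.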

How the results depend on the processing

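No paired analysis was possible because the labels give no replicate numbers, which were set here in the order of the records. Recurrent against primary tumours, the count of J-domain genes called was 0 and became 1, DNAJC6, with no filter on low counts and 1 with DESeq2. It stayed 0 under the other alternatives. The cause was not tested. With no filter the share of all genes called was not computed, so the 1 call has nothing to be set beside. The median log2 fold change of the J-domain genes, 0.023, ran from -0.035 to 0.054 with 1 tumour left out. DNAJB1, at 0.026, turned to -0.000288 with upper-quartile factors and ran from -0.046 to 0.13 with 1 tumour left out. DNAJC10, at -0.030, ran from -0.12 without primary replicate 2 to 0.027 without primary replicate 1. DNAJC27, at 0.18, ran from -0.23 without recurrent replicate 3 to 0.36, and was -0.27 among the 4 tumours whose library names share their first letters. Tumours against culture, 3 members were past 2-fold and 8 past 1.5-fold, with 3 to 4 past 2-fold when 1 tumour was left out. No share of all genes was computed for 1.5-fold or for the left-out tumours, so nothing is read from those counts. Tumours against controls, 0 members were higher, 1 with library-total scaling, 1 with no filter, and 0 to 7 with 1 library left out, the 7 without control replicate 3. For library-total scaling and no filter the share of all genes was not computed, so nothing is read from those counts. Depth limits the controls and the 7 untested members. Primary replicate 2 was lower than the other tumours in the median of the 18 members with long transcripts (log2 difference -0.19) and higher in that of the 19 with shorter ones (0.22). It was the lowest tumour in 9 of the 18 and the highest in 2, and the highest in 8 of the 19 and the lowest in 3. No value over all genes was set beside this split.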
